A study of Mus musculus with 6 samples.

Results

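The genes described here encode 10 factors through which the nucleus runs transcription and replication of mitochondrial DNA (mtDNA): Nrf1, Gabpa, Gabpb1, Tfam, Tfb1m, Tfb2m, Polrmt, Polg, Polg2 and Ssbp1. They are listed by symbol, and the rule uses no measured value. A probe counted as theirs when its transcript accession belonged to one of the 10 genes, which gave 25 of the 56605 probes on the array and 10 of the 23462 genes with a named probe. Microglia came from mice labelled male and 10 weeks old on a C57BL/6 background. Mice of both groups carried a PGC-1α allele and an eGFP gene under the control of loxP sites. The mPGC-1α mice also carried a Cre recombinase in the Cx3cr1 locus that tamoxifen activates, so that Cre acts in cells that use the Cx3cr1 promoter. The paper describes tamoxifen given over several days and then an interval for induction before experiments. Its microarray methods do not state the treatment of each group. The PGC-1αf/f controls were littermates without Cre, and the labels name no injury for either group. The cells were selected with magnetic beads through the surface receptor P2RY12. There were 3 arrays of each group, and neither the labels nor the methods say whether each array came from 1 animal or from several, so the p-values below measure only the spread between these arrays.

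Mitochondria keep a small genome whose transcription depends on proteins made from nuclear genes. The RNA polymerase POLRMT starts transcription together with TFAM, which also packs mtDNA into nucleoids, and with TFB2M, which opens the promoter. Replication is carried out by the polymerase subunits POLG and POLG2, and SSBP1 covers the single strand that is exposed meanwhile. Nuclear respiratory factor 1 (Nrf1) and the GA-binding protein (Gabpa with Gabpb1, also called nuclear respiratory factor 2) are nuclear activators that are known to bind promoters of such genes. PGC-1α is a coactivator known to work with these activators, and a rise of Tfam is often read as a sign of mitochondrial biogenesis. The comparison asks whether these genes were at other levels in microglia with PGC-1α overexpression.

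The promoters of the 10 genes are shown first, since PGC-1α itself binds no DNA and is known to act through factors such as these. RefSeq windows of the build GRCm38.p6, from 250 bases before to 50 after the annotated start, were found for all 10 genes. They were searched on both strands for GCGCANGCG, the core bound by NRF-1, and for CCGGAAG, a core of the ETS family to which GABP belongs. The ETS core lay in windows of 6 of the 10 genes (Gabpa, Tfam, Polrmt, Polg, Polg2 and Ssbp1), between 29 and 93 bases before the start, against 9.93% of all 27025 genes. The NRF-1 core lay in windows of 3 genes (Gabpb1, Tfb2m and Polrmt), against 7.03% of all genes. In Polrmt it occurred in 2 overlapping copies at the start itself, and in Tfb2m it lay 13 bases into the transcript. No NRF-1 core overlapped an ETS core in these genes. TCAAGGTCA, the core of the estrogen-related receptors that PGC-1α also coactivates, was in none of the 10 genes' windows and in 0.466% of all genes. These letters are a description of the windows and not sites shown to be bound. The 250 bases before the start are printed for Gabpb1, the member with the largest difference at the brightest probe of each gene. These bases are also printed for Tfam, Polrmt and Ssbp1, one each of the nucleoid, polymerase and replication proteins. They run 5′ to 3′ on the strand of the gene, and capitals mark the cores named above. In Polrmt the capitals at the end are the first letters of a core that runs into the transcript, and Gabpb1 has 2 annotated starts, of which the one with a match is shown.
Gabpb1, chr2:126675593-126675842, minus strand: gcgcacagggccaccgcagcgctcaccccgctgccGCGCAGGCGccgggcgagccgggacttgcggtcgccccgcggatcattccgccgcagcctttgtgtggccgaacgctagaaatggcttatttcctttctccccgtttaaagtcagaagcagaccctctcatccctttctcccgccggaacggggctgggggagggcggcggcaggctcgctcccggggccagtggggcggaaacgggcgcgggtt
Tfam, chr10:71238045-71238294, minus strand: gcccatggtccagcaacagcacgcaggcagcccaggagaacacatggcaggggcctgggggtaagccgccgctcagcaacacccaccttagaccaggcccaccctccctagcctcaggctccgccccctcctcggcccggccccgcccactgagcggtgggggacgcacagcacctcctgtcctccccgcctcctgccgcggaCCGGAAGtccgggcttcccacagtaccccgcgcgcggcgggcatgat
Polrmt, chr10:79746582-79746831, minus strand: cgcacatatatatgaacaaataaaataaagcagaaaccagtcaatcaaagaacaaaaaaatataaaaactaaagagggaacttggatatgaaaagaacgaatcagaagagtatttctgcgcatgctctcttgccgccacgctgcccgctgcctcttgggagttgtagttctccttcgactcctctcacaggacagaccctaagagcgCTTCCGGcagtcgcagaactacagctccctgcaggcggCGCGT
Ssbp1, chr6:40471218-40471467, plus strand: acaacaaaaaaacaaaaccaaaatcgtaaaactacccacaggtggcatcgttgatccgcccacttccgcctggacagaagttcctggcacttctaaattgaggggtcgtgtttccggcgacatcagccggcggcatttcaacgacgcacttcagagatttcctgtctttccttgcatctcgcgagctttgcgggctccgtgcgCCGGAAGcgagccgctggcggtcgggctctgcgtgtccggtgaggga

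The overexpressed gene and the sort were checked first. Values are given as log2 of the spot intensity minus the 75th percentile of the same array, so that 0 is the signal of that percentile. Ppargc1a, which encodes PGC-1α, read 0.19, -0.44 and -1.21 in PGC-1αf/f and 0.57, 0.28 and 0.08 in mPGC-1α. The difference was 0.80 (SE 0.35, adjusted p = 0.31 in limma), with overlap, and 0.44 without PGC-1αf/f replicate 3. A second probe differed by 0.59 (adjusted p = 0.45 in limma). Whether these probes lie in the transgene was not tested. Cx3cr1, whose locus holds the Cre, differed by -0.51 without overlap (adjusted p = 0.19 in limma). A second Cx3cr1 probe differed by -0.85 (adjusted p = 0.27 in limma, with 2 values per group). P2ry12, the receptor used for the sort, was well above background on all arrays and differed by -0.31 (adjusted p = 0.48 in limma, with 2 control values). All arrays lay on 1 slide with each group in a row of its own, so slide row and group cannot be told apart. The 75th percentile of the signal was between 1012 and 2138 on the 6 arrays, and no spot was saturated. PGC-1αf/f replicate 3 correlated with the other arrays at a mean of 0.928, against 0.962 to 0.972 for the rest. On mPGC-1α replicate 3, labelled male, 0 of 7 Y-linked probes were well above background, against 5 or 6 on the others. Xist, the RNA that coats the inactive X chromosome of female cells, had signals of 226 on PGC-1αf/f replicate 2, 317 on mPGC-1α replicate 2 and 474 on mPGC-1α replicate 3, against 23.3 to 24.3 on the other arrays, and was well above background on 3 arrays. The male label was thus met by both kinds of probe on 3 of the 6 arrays.

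Of the 25 probes, 21 could be tested because they were well above background throughout at least 1 group, and 20 of these were so on all 6 arrays. A gene is represented by its brightest tested probe with a value on every array, and the level of one probe says nothing about that of another. No member probe passed an adjusted p of 0.05 in limma, where 0.0792% of all 25257 probes with a p did. At an unadjusted p under 0.05 there was 1 lower probe and no higher one, while 9.21% of all probes were lower and 7.53% were higher by that rule. The groups did not overlap, with mPGC-1α below, at 2 of the 20 member probes with all values (10.0%), and at 13.7% of all probes. They did not overlap, with mPGC-1α above, at 0 of the 20, and at 11.4% of all probes, which makes 25.2% of all probes in either direction. By these rules the members' shares were not above those of all probes. The mean was lower in mPGC-1α at 14 of the 21 tested probes, against 50.3% of all probes, and for 6 of the 10 genes, against 45.9% of the 12302 genes that had a tested probe with a value on every array, to which shares of all genes refer below. The median log2 difference of the 10 genes was -0.10 and their range ran from -0.38 to 0.06, while the median over all tested probes was -0.0026 with quartiles of -0.22 and 0.22. Within the slide columns that held an array of each group, the median of the 10 genes was 0.07 and 0.0066, so its sign turned. In bulk RNA, fewer cells of a type and less RNA per cell cannot be told apart.

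**Figure D1:**
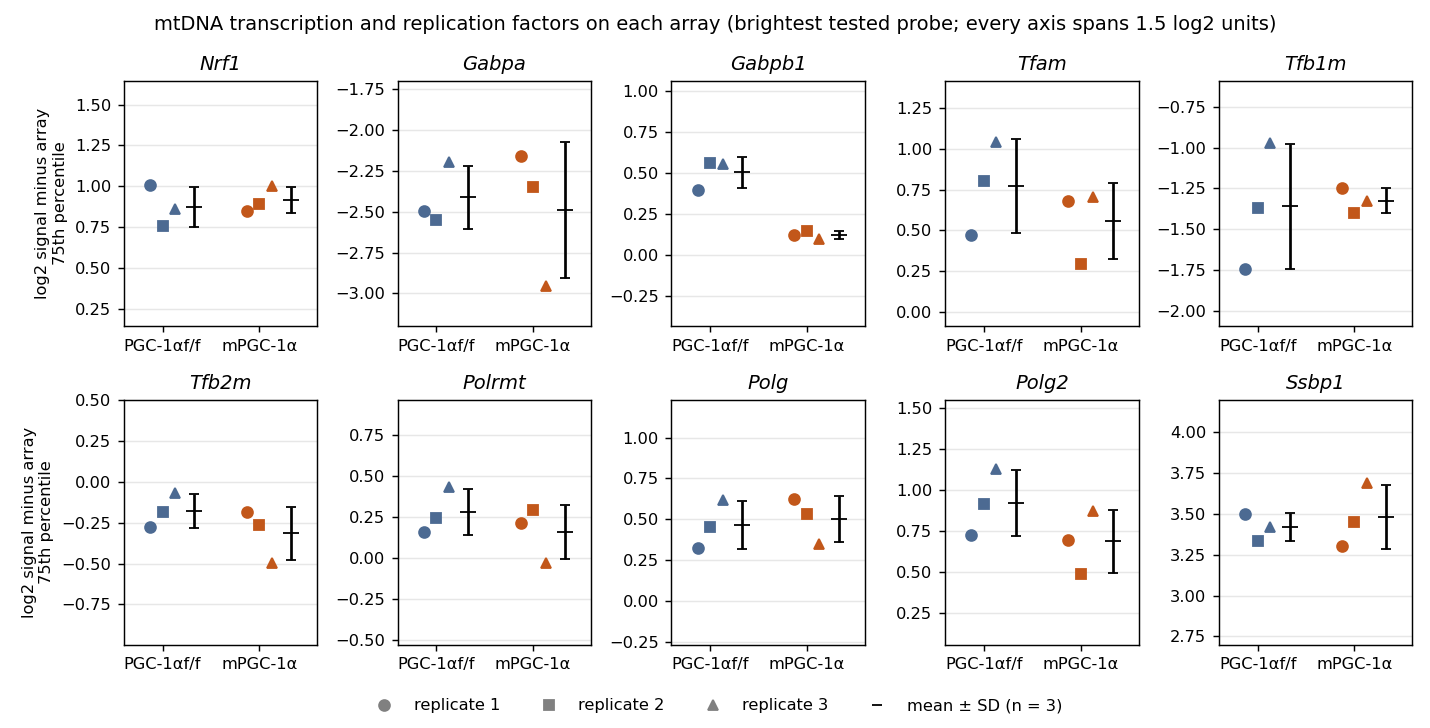
Log2 signal relative to the 75th percentile of the array (vertical axis) for the brightest tested probe of each of the 10 genes on each of the 6 arrays, with the mean and SD of the 3 arrays of a group. The groups are apart only for Gabpb1, whose mPGC-1α arrays lie between 0.10 and 0.15 and whose PGC-1αf/f arrays lie between 0.40 and 0.56.

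Among the nuclear activators, Gabpb1 showed the largest difference of the 10 genes at their brightest probes. It encodes the GABP subunit that carries the activation domain, while Gabpa encodes the subunit that binds DNA. Its brightest probe (A_55_P2066409) read 0.40, 0.56 and 0.56 in PGC-1αf/f and 0.12, 0.15 and 0.10 in mPGC-1α. All 3 mPGC-1α arrays lay below every control. The difference was -0.38 (SE 0.12, 95% interval -0.67 to -0.09), which is a 1.30-fold lower signal, with an unadjusted p of 0.017 and an adjusted p of 0.23 in limma. Within the slide columns that held an array of each group it was -0.27 and -0.42. Leaving out any 1 array gave -0.44 to -0.35. The second probe (A_55_P2500841) read -2.32, -2.01 and -1.95 against -2.78, -2.20 and -2.70, so 1 mPGC-1α array reached into the control range. It differed by -0.47 (95% interval -0.94 to 0.0084, adjusted p = 0.30 in limma). The third probe differed by -0.12 (adjusted p = 0.76 in limma), and the other 2 were well above background on none of the 6 arrays. The paralog Gabpb2, which encodes another activating subunit of GABP and is no member, read -1.67, -2.01 and -1.66 against -2.05, -2.06 and -2.35. Its groups did not overlap, and the difference was -0.37 (adjusted p = 0.31 in limma), with -0.38 and -0.047 within the slide columns and -0.18 with array weights.

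The DNA-binding partner Gabpa gave no such pattern. It read -2.49, -2.55 and -2.19 in PGC-1αf/f and -2.16, -2.35 and -2.95 in mPGC-1α. The highest and the lowest of its 6 values were both from mPGC-1α arrays. The difference was -0.07 (95% interval -0.62 to 0.47, adjusted p = 0.89 in limma), and without mPGC-1α replicate 3 it was 0.16. A brighter Gabpa probe had outlier spots on 2 of the mPGC-1α arrays and was left with 1 value in that group, at a difference of 0.03 (adjusted p = 0.98 in limma). Nrf1 read 1.00, 0.76 and 0.86 in PGC-1αf/f and 0.85, 0.89 and 1.00 in mPGC-1α, so the groups lay across each other. Its difference was 0.04 (95% interval -0.27 to 0.35, adjusted p = 0.90 in limma), and 2 dimmer probes of Nrf1 pointed down instead. One of these (A_55_P2506320) read -0.72, -0.82 and -0.76 against -1.21, -0.89 and -0.93. All its mPGC-1α arrays lay below the controls, at a difference of -0.24 (adjusted p = 0.41 in limma). The other differed by -0.17 (adjusted p = 0.76 in limma). The direction of Nrf1 thus depended on the probe that stood for it.

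For the factors that start mitochondrial transcription, Tfam is described first. Its brightest probe read 0.47, 0.80 and 1.04 in PGC-1αf/f and 0.68, 0.29 and 0.70 in mPGC-1α. The lowest and the highest controls enclosed both upper mPGC-1α arrays. The difference was -0.21 (95% interval -0.68 to 0.26, adjusted p = 0.60 in limma), and 0.21 and -0.51 within the slide columns. It shrank to -0.08 when PGC-1αf/f replicate 3 or mPGC-1α replicate 2 was left out, and was -0.36 without PGC-1αf/f replicate 1. A second Tfam probe (A_51_P493720) had less spread, reading 0.53, 0.47 and 0.64 against 0.48, 0.24 and 0.31, and differed by -0.20 (95% interval -0.52 to 0.11, adjusted p = 0.46 in limma). The intervals thus hold folds from 0.623 to 1.20 at the first probe and from 0.697 to 1.08 at the second.

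Polrmt, the polymerase itself, read 0.16, 0.25 and 0.44 in PGC-1αf/f and 0.21, 0.29 and -0.03 in mPGC-1α. Only mPGC-1α replicate 3 lay outside the control range. Its difference was -0.12 (95% interval -0.48 to 0.23, adjusted p = 0.69 in limma), and without that array it was -0.029. The probes of Tfb2m, which encodes the factor that opens the promoter, differed in size. The brighter one read -0.28, -0.19 and -0.07 against -0.18, -0.26 and -0.50, with a difference of -0.14 (adjusted p = 0.64 in limma), or -0.05 without mPGC-1α replicate 3. The dimmer one (A_52_P69325) read -1.15, -1.55 and -1.05 against -1.74, -2.15 and -1.45. It gave the largest difference among all member probes, at -0.53 (95% interval -1.06 to 0.0045, unadjusted p = 0.051 and adjusted p = 0.30 in limma), with -0.59 and -0.60 within the slide columns and -0.34 without mPGC-1α replicate 2. The groups overlapped because mPGC-1α replicate 3 lay above PGC-1αf/f replicate 2. Tfb1m, a paralog that is known for methylating the RNA of the small mitochondrial ribosomal subunit, read -1.74, -1.37 and -0.97 against -1.25, -1.40 and -1.32. Its controls spread on both sides of the mPGC-1α arrays. The difference was 0.04 (95% interval -0.45 to 0.53, adjusted p = 0.94 in limma), and leaving out PGC-1αf/f replicate 3 gave 0.23, while leaving out replicate 1 of that group gave -0.15.

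No probe of the replication proteins passed the test. Polg, the catalytic subunit of the mtDNA polymerase, read 0.32, 0.45 and 0.62 in PGC-1αf/f and 0.63, 0.53 and 0.35 in mPGC-1α. The groups covered the same range, and the difference was 0.04 (95% interval -0.31 to 0.38, adjusted p = 0.92 in limma). Its other probes differed by -0.07 and 0.04 (adjusted p = 0.86 and 0.94 in limma). Polg2, the accessory subunit that holds the polymerase on its template, read 0.72, 0.91 and 1.13 against 0.70, 0.49 and 0.87. The mPGC-1α arrays lay towards the low end, and 1 of them was inside the control range. The difference was -0.24 (95% interval -0.64 to 0.16, adjusted p = 0.49 in limma), and -0.10 at a second probe (adjusted p = 0.85 in limma). The brighter Polg2 probe gave -0.13 without PGC-1αf/f replicate 3, and -0.028 and -0.42 within the slide columns. Ssbp1 read 3.50, 3.34 and 3.42 against 3.30, 3.45 and 3.69. Its difference was 0.06 (95% interval -0.29 to 0.41, adjusted p = 0.86 in limma), and a second probe gave 0.07 (adjusted p = 0.82 in limma).

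**Figure D2:**
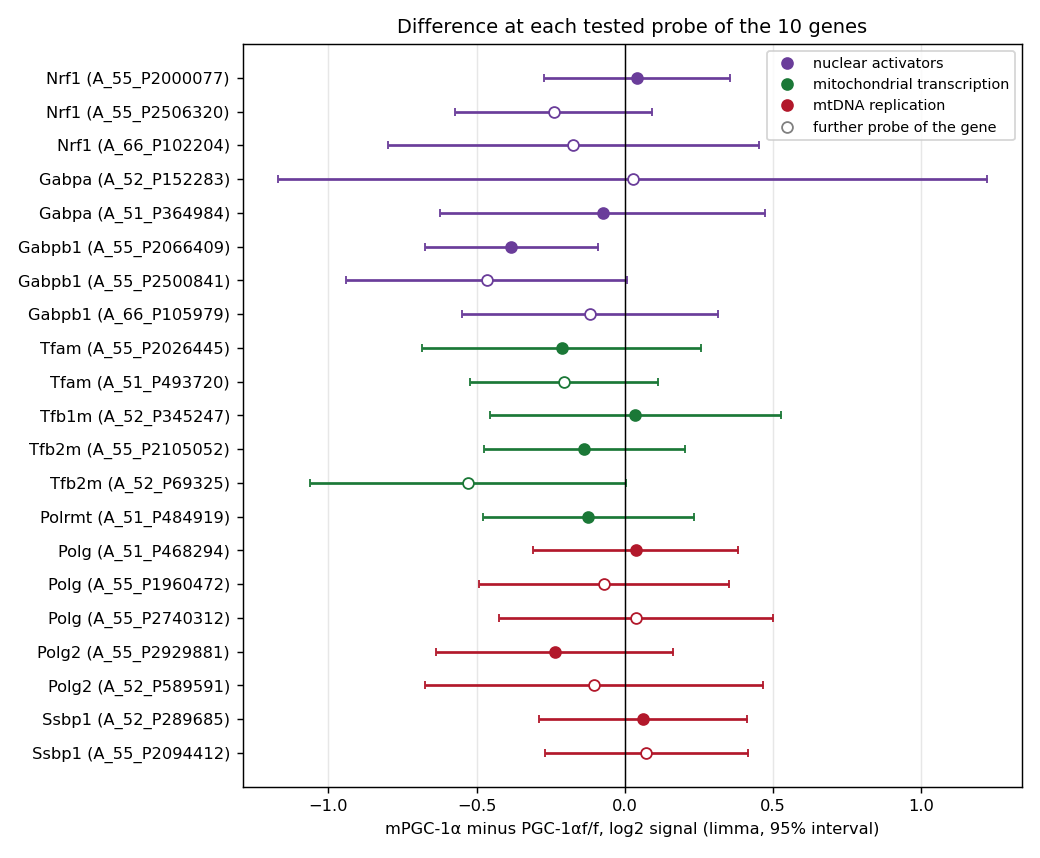
Difference between mPGC-1α and PGC-1αf/f (horizontal axis, log2 signal) at each of the 21 tested probes with its 95% interval from limma. Filled points are the probes that stand for a gene and open points are further probes. Apart from the brightest Gabpb1 probe, whose interval ends at -0.09, every interval reaches 0.

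The intervals bound what these arrays could have missed. For all 10 genes the 95% interval lay within 1 log2 unit of 0, with the widest bounds at -0.68 and 0.53, and this held for 19 of the 21 probes. The exceptions were the Gabpa probe with a single mPGC-1α value and the dimmer Tfb2m probe. Smaller differences in either direction remain within the intervals. Of the 8 genes with several tested probes, 5 had the same sign at all of them. In Gabpb1, Tfam, Tfb2m and Polg2 all probes were lower, in Ssbp1 they were higher, and in Nrf1, Gabpa and Polg they had both signs. The median residual SD was 0.15 for the brightest probes of the 10 genes and 0.22 over all their 21 tested probes, against 0.22 for all probes tested. The 6 genes with an ETS core in the window had differences from -0.24 to 0.06 (median -0.10). The 4 without had differences from -0.38 to 0.04 (median -0.05). The ranges overlapped, and no order by the presence of that core was seen. Gabpb1, Polrmt and Tfb2m, which hold the NRF-1 core, differed by -0.38, -0.12 and -0.14 (median -0.14). The 7 genes without it differed by -0.24 to 0.06 (median 0.04). The ranges overlapped, since Polg2 (-0.24) and Tfam (-0.21), which lack the core, were below Polrmt and Tfb2m. The split by this core was not tested over all genes. Polrmt and Tfb2m turned to 0.049 and 0.0080 with slide column as a fixed block.

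The arrays that stood apart and the marker genes of other cells were set beside these values. PGC-1αf/f replicate 3 was the highest array for 5 of the 10 members, and its median deviation from the member's mean was 0.23, against 0.0051 over all tested probes. Without it the median difference of the 10 genes was -0.0062 in place of -0.10. The array mPGC-1α replicate 3 was the lowest for 4 of the 10 members, and without it the median difference was -0.037. Gabpb1 kept -0.36 without the first of these arrays and -0.37 without the second. Oligodendrocyte markers were lower in mPGC-1α for 8 of the 8 genes that had a tested probe with a value on every array (median -0.58), and their summed signal, in multiples of each array's 75th percentile, was 15.9 to 19.2 in PGC-1αf/f and 10.1 to 13.2 in mPGC-1α. Without PGC-1αf/f replicate 3 the median was -0.44, with 8 of 8 lower. Blood leukocyte markers were higher for 12 of 12 (median 1.08), with sums of 18.6 to 120.4 and 121.6 to 150.7. The low end was PGC-1αf/f replicate 3, and without it the control sums were 103.9 and 120.4 and the median was 0.32, with 12 of 12 still higher. For the microglia markers with all values, 4 of 5 were lower (median -0.13), with sums of 77.4 to 88.2 and 68.3 to 75.7. These sums include Cx3cr1 (-0.51), whose locus holds the Cre, so they are not a measure of microglia alone. Olfml3 differed by -0.39, Siglech by -0.13, Csf1r by -0.05 and Aif1 by 0.03. Whether the sums stay apart without Cx3cr1 was not tested. Another 6 microglia markers, P2ry12 among them, were tested only at probes with a missing value, and all 7 of these probes were lower (differences of -0.996 to -0.016). Endothelial and mural markers were higher for 6 of 6 (median 0.64), with sums of 1.57 to 4.29 and 2.99 to 5.98. Without PGC-1αf/f replicate 3, again the low end, the control sums were 4.16 and 4.29, the median was 0.06 and 5 of 6 were higher. Tek and Rgs5 were well above background on no array. Border macrophage markers were higher for 5 of 5 (median 0.31), with sums of 6.90 to 8.69 and 7.38 to 12.9, and 3 of 5 were higher (median 0.04) without mPGC-1α replicate 3. Neuron markers were higher for 6 of 7 (median 0.14), but for 2 of 7 (median -0.08) without PGC-1αf/f replicate 3. Astrocyte markers were higher for 4 of 7 (median 0.07) and erythroid markers for 3 of 3 (median 0.12), against 2 of 7 and 1 of 3 without the same array, and 7 of 7 and 1 of 3 without mPGC-1α replicate 3. No gene of these lists had an adjusted p under 0.05 in limma, and the part of these cells in the differences of the 10 genes was not tested.

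Other genes of the same machinery were read from lists of 74 genes, of which 59 had a named probe and 55 had a tested probe with a value on every array. None had an adjusted p under 0.05 in limma, where 0.065% of all genes did, and the smallest was 0.17. An unadjusted p under 0.05 was found for 3 higher genes and 1 lower gene (7.27% of the 55). Among all genes 8.16% were higher and 5.71% lower by that rule, 13.9% in all. The groups did not overlap for 7 higher and 5 lower genes (21.8%), against 12.2% higher and 10.8% lower, or 22.9% in all, among all genes. The median difference was 0.07. The 15 transcripts encoded by mtDNA itself are in these lists but were not analysed here, so the output of the factors is not part of the comparison.

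Of the 9 such genes of replication, primer removal and repair, 5 were higher and 4 were lower. Dna2, a nuclease and helicase that also works in the nucleus, read -1.68, -1.07 and -1.53 in PGC-1αf/f and -0.68, -0.48 and -0.82 in mPGC-1α. All its mPGC-1α arrays lay above the controls, at a difference of 0.77 (SE 0.20, adjusted p = 0.17 in limma). Twnk, the helicase that unwinds mtDNA, read -1.72, -1.86 and -0.93 against -2.03, -1.93 and -2.04. It differed by -0.50 (adjusted p = 0.35 in limma), and by -0.21 without PGC-1αf/f replicate 3. Top3a, a topoisomerase that separates linked circles, differed by -0.31 (adjusted p = 0.33 in limma), also without overlap, and by -0.20 without mPGC-1α replicate 1. Twnk and Top3a were thus on the lower side and Dna2 on the higher side, and none of these passed the test. In the same list Top1mt differed by 0.07 with overlap and Lig3 by 0.21 without overlap (adjusted p = 0.80 and 0.42 in limma).

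Of the 12 genes of dNTP supply, 9 were higher and 3 were lower. Tk2, the kinase that salvages pyrimidine nucleosides inside mitochondria, read 0.26, 0.44 and 0.37 in PGC-1αf/f and -0.05, -0.13 and -0.09 in mPGC-1α. The arrays within each group lay close together and the groups were apart, at a difference of -0.45 (SE 0.12, adjusted p = 0.19 in limma). Slc25a33, a carrier of pyrimidine nucleotides across the inner membrane, read 0.47, 0.34 and 0.25 in the controls, and its lowest mPGC-1α array stood at 0.64. It went the other way, at 0.49 (SE 0.16, adjusted p = 0.23 in limma), and so did Mpv17, an inner membrane protein whose loss depletes mtDNA, at 0.24 (adjusted p = 0.38 in limma). Tk2 and Slc25a33 thus had opposite signs, but both were named for the size of their difference and neither passed the test. Slc25a36 of the same list differed by 0.08 with overlap (adjusted p = 0.80 in limma).

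In the remaining lists, the 6 genes of nucleoid proteins and matrix proteases had 4 higher and 2 lower. Clpp, a subunit of the matrix protease ClpXP, was higher by 0.33 without overlap (adjusted p = 0.30 in limma). Transcription elongation, termination and mRNA stability had 4 higher and 4 lower of 8, and Slirp, which protects mitochondrial mRNA, differed by 0.24 (adjusted p = 0.37 in limma), or 0.11 with the median of each array as the scale. Mitochondrial RNA processing had 6 higher and 5 lower of 11. There Hsd17b10, a subunit of mitochondrial RNase P, differed by 0.25 (adjusted p = 0.39 in limma) and Fastkd5, which acts in processing of mRNA ends, by -0.13 (adjusted p = 0.60 in limma), each without overlap. When PGC-1αf/f replicate 3 was left out these became 0.15 and -0.078. The upstream regulators, which include Ppargc1a and Gabpb2, had 4 higher and 5 lower of 9.

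**Figure D3:**
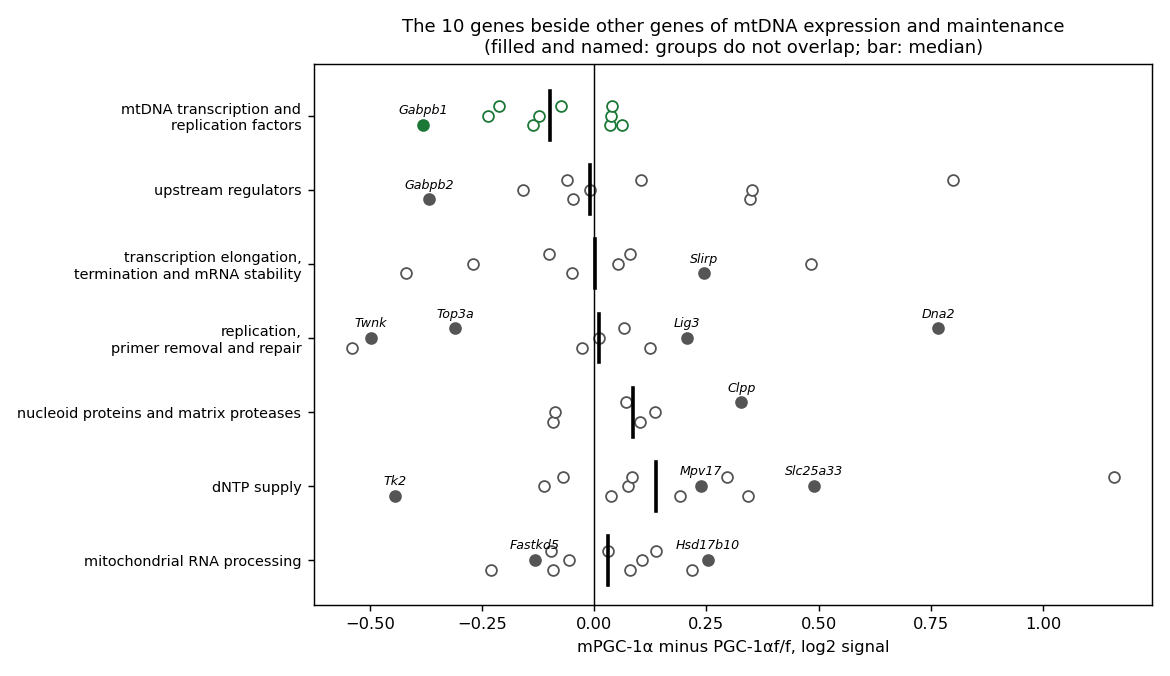
Difference between mPGC-1α and PGC-1αf/f (horizontal axis, log2 signal) for the 10 genes and for each of the 55 genes of the other lists, with a bar at the median of each list. Filled and named points are genes whose groups did not overlap, which among the 10 is Gabpb1 and among the other 55 are 7 higher and 5 lower genes.

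How far each value rested on its processing is drawn for the 10 genes. Over the 18 alternatives, Gabpb1, Tfam and Polg2 kept their sign in all. Gabpb1 ranged from -0.51 to -0.32, Tfam from -0.36 to -0.08 and Polg2 from -0.37 to -0.13. Polrmt and Tfb2m changed sign in 1 alternative each, Polg in 3, Tfb1m in 4 and Nrf1, Gabpa and Ssbp1 in 5. No member probe passed an adjusted p of 0.05 in limma under any setting tried, and the smallest adjusted p was 0.079, for Gabpb1 with arrays weighted by their fit.

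**Figure D4:**
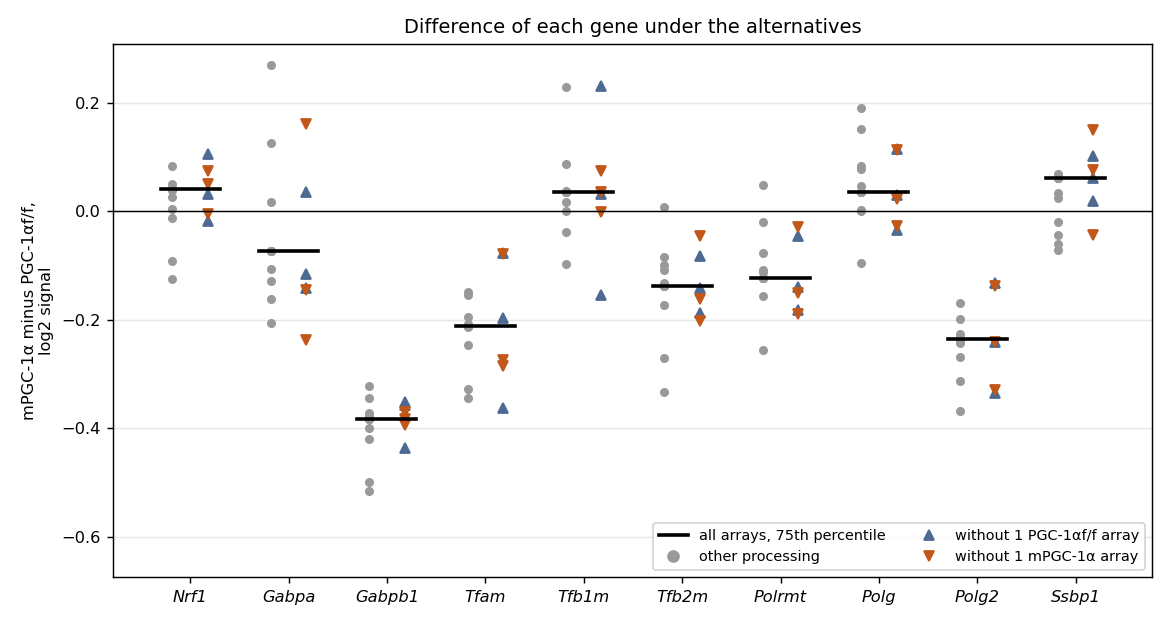
Difference between mPGC-1α and PGC-1αf/f (vertical axis, log2 signal) for each of the 10 genes as reported (bar), under other processing (grey circles) and with 1 array of either group left out (triangles). The points of Gabpb1 stay between -0.51 and -0.32, and those of 7 genes lie on both sides of 0.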

How the data were processed

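Total RNA of P2RY12-selected microglia was amplified, labelled with Cy5 and hybridized to 1-colour Agilent mouse arrays. The deposited scanner files hold the intensity of each spot after the authors ran Feature Extraction 11.5.1.1, which subtracts background and corrects spatial trends. The methods name GeneSpring for normalization and no test per gene. The deposited table of the series holds the same intensities, not scaled between arrays.

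Groups and replicate numbers came from the labels. Of 59305 non-control spots per array, those flagged as outliers were left out, log2 intensity minus the array's 75th percentile was taken, and spots of a probe were averaged. The test took the 25333 probes that were well above background throughout at least 1 group, and 25257 could be fitted. A share of 0.5 of a probe's spots had to be well above background. Probes were named through their transcript accession in RefSeq (GRCm38.p6), which gave 33767 probes 1 symbol and left 22838 without. mPGC-1α was compared with PGC-1αf/f by limma 3.58.1 in R 4.3.3 (lmFit and eBayes, Benjamini-Hochberg over all tested probes), which was checked on simulated data. The number of arrays limits the precision. Named genes were all members, Ppargc1a, Cx3cr1 and P2ry12, and per list up to 3 genes with the largest difference among those without overlap and well above background on all 6 arrays, with any gene at an adjusted p under 0.05. The members and lists were chosen with earlier results of these data known.

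Alternatives were other normalizations, background correction and filters, replicate number or slide column as a block, array weights, a trended and robust eBayes, the mean over a gene's probes, and leaving out each array. The marker lists without single arrays were added after seeing the data. Figures were drawn with matplotlib 3.10.9.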

Additional observations from a re-analysis of the deposited data

How the results depend on the processing

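Of 180 values of the 10 genes under the alternatives, 156 kept their sign and 24 did not, and the cause was not tested. With the median of each array in place of the 75th percentile, which moved the median over all probes to -0.14, the median of the 10 genes was -0.23, Nrf1 was -0.092, Tfb1m -0.097, Polg -0.096 and Ssbp1 -0.072. Quantile normalization gave -0.060 for Ssbp1, and normexp with quantile normalization gave -0.020 for Ssbp1 and -0.039 for Tfb1m. With slide column as a fixed block, Nrf1 was -0.012, Gabpa 0.27, Tfb2m 0.0080, Polrmt 0.049 and Ssbp1 -0.044. As a random block, Gabpa was 0.016. With array weights Gabpa was 0.13. The mean over a gene's probes gave -0.12 for Nrf1, -0.33 for Tfb2m and -0.32 for Gabpb1. The median of each array gave -0.27 for Tfb2m and -0.26 for Polrmt. Leaving out 1 array gave -0.017 to 0.11 for Nrf1, -0.24 to 0.16 for Gabpa, -0.15 to 0.23 for Tfb1m, -0.20 to -0.046 for Tfb2m, -0.19 to -0.029 for Polrmt, -0.034 to 0.11 for Polg and -0.045 to 0.15 for Ssbp1. For the median of the 10 genes it gave -0.18 to -0.0062, array weights gave 0.0091 and slide column as a fixed block -0.0020.

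Over all probes limma called 20. The count was 11 with quantile normalization, 11 with the median of each array, 11 with normexp, 456 in the deposited table without normalization, 9 without the filter on dim probes, 4 when all arrays had to be well above background, 1 with slide column as a fixed block, 138 as a random block, 754 with array weights, 7 with the mean over a gene's probes, and 0 to 25 with 1 array left out. It was 2 without PGC-1αf/f replicate 2, 11 without mPGC-1α replicate 1, 1 without mPGC-1α replicate 2 and 0 without mPGC-1α replicate 3. The number of member probes called was 0 throughout, and 0 to 3 had an unadjusted p under 0.05. In the other lists, array weights called 1 gene, Tk2 (difference -0.51, adjusted p = 0.049). Among the other genes named, the median of each array gave 0.11 for Mpv17, 0.12 for Hsd17b10, -0.27 for Fastkd5, 0.19 for Clpp and 0.11 for Slirp. Slide column as a fixed block gave 0.15 for Hsd17b10, -0.08 for Fastkd5, -0.19 for Twnk and -0.21 for Gabpb2, and array weights gave 0.21 for Clpp, -0.23 for Twnk, 0.16 for Slirp and -0.18 for Gabpb2. Quantile normalization gave 0.16 for Hsd17b10 and Slirp, and normexp 0.12 for Hsd17b10. Deviations of same-numbered arrays correlated at 0.14, 0.13 and 0.019. The first 2 of these pairs also shared a slide column and the third did not, and the consensus correlation within slide columns was 0.35. The replicate numbers were therefore not taken to pair all samples. The fit with the replicate number as a block called 0 probes of all, at a Gabpb1 difference of -0.38 (adjusted p = 0.24). Signal over background limited 4 of the 25 member probes, which were not tested.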
